A study of Mus musculus with 12 samples.

Results

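The IL-1 family of cytokines and receptors was examined in 4 mouse lung adenocarcinoma cell lines through 10 named genes, the receptors and receptor-like genes Il1r1, Il1r2, Il1rl1, Il1rl2 and Il1rap and the ligands and antagonist Il1a, Il1b, Il1rn, Il18 and Il33. The set was chosen by gene name, and in part by measured values: Il1r2, Il1r1 and Il1rl2 were included as neighbours on a chromosome that were all highest in the line KC2. Their height in KC2 is therefore given below as a description, with no test. Of the 10 genes, 9 had at least 1 probe set annotated to that symbol alone, 17 probe sets in all, among 18193 genes measured. Il1rl1, the receptor for IL-33, was not analysed here.

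The lines KC1, KC2 and KC3 are labelled highly metastatic and KC4 poorly metastatic, with 3 arrays per line labelled as biological replicates. All carry the genotype K-rasLA1/+; Cdkn1a-/-, an activating allele of the oncogene K-ras together with loss of p21, in a 127s background. They came from primary lung tumours found at necropsy and were grown in RPMI 1640 with 10% serum; the labels speak of 6 tumours from 4 mice but do not say which mouse gave which line. KC4 is the only poorly metastatic line, so its metastatic class and its identity as a line cannot be told apart, and p-values measure the spread between arrays of a line.

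IL-1α and IL-1β, the products of Il1a and Il1b, both bind the receptor encoded by Il1r1, which then recruits the accessory protein encoded by Il1rap and signals through MyD88 to NF-kappaB and AP-1. Il1r2 encodes a decoy that binds the same ligands and has no signalling domain, and Il1rn encodes an antagonist that occupies the receptor. Il1rl2 encodes the receptor of the IL-36 cytokines, which also pairs with the accessory protein, while IL-18 and IL-33 have receptors of their own in the same family. In the lung, epithelial cells store IL-1α, IL-18 and IL-33 and release them on damage.

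The promoters of the 3 receptor genes that were highest in KC2 are shown first because these genes are neighbours, and that of Il1a because it is the ligand that differed most between the lines. All 10 genes had an entry among the RefSeq promoter sequences (build GRCm38.p6), 15 entries together, each holding 250 bases before and 50 bases from the annotated start on, 5′ to 3′ on the strand of the gene. Capitals mark matches on either strand to 4 motifs. These were TATAAA as the box that positions many starts, the AP-1 element with the letters TGACTCA, the consensus of NF-kappaB binding, and the palindromic E-box, which reads CACGTG.
Il1r2, chr1:40085843-40086142, plus strand: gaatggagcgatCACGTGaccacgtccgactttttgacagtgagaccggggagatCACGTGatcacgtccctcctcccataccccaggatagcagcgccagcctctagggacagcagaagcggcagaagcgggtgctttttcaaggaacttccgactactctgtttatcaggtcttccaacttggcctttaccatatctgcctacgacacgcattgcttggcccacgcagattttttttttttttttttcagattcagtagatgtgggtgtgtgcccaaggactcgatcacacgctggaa
Il1r1, first start, chr1:40224830-40225129, plus strand: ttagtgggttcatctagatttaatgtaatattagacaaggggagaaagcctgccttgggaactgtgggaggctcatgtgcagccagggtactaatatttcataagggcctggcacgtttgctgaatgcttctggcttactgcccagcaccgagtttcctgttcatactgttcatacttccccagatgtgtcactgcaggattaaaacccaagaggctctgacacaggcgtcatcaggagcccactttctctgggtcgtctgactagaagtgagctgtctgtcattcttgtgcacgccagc
Il1r1, second start, chr1:40266336-40266635, plus strand: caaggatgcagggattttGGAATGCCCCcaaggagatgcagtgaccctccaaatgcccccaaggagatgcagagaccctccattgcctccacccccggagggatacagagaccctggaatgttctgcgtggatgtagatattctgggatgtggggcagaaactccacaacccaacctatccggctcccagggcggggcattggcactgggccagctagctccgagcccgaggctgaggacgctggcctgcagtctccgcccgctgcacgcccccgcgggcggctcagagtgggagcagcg
Il1rl2, chr1:40324339-40324638, plus strand: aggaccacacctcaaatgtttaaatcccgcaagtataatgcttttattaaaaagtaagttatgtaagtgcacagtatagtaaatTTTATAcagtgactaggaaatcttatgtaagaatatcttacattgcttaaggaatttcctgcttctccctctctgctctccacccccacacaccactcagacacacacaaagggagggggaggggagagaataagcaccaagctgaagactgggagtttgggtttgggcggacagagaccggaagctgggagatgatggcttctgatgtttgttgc
Il1a, chr2:129309923-129310222, minus strand: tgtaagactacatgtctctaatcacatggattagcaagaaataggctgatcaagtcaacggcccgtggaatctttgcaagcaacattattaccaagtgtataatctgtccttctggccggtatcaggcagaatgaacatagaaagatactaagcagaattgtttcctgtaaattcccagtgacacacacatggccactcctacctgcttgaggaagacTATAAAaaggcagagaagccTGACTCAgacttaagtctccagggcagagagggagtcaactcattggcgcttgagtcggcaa

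With the first base of a match counted from the annotated start, the Il1r2 window held 2 E-box matches, at -238 and -195. Of the Il1r1 windows, the first held no match to the 4 motifs and the second held an NF-kappaB match at -232, while that of Il1rl2 held TATAAA on the opposite strand at -166. The Il1a window held TATAAA at -32 and an AP-1 match at -12. No matches overlapped. Over all 32851 promoter entries, TATAAA was found in 13.6%, the AP-1 letters in 5.2%, the NF-kappaB consensus in 8.46% and the E-box letters in 7.15%. The 3 neighbouring receptor genes shared no match to any of these motifs in the windows shown. With motifs this infrequent a match shared by all 3 was unlikely beforehand, so no conclusion is drawn from its absence.

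KC2 had far more transcript of the signalling IL-1 receptor than the other lines. Il1r1 had signals of 537, 517 and 572 in KC2, against 36.7, 51.2 and 105 in KC1, 41.0, 83.5 and 53.0 in KC3, and 54.0, 49.4 and 34.9 in KC4, in the linear units of the deposited table. The 3 KC2 arrays stood apart from all others, and the ranges of KC1, KC3 and KC4 overlapped. Each value is an average over a culture, in which fewer cells with the transcript and less transcript per cell cannot be told apart. On the log2 scale, with signals under 16 set to 16, Il1r1 was 3.22 higher in KC2 than in the next line, KC1, a 9.31-fold difference. A second Il1r1 probe set stayed at or under 8.29 on every array and gave no information.

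The decoy receptor followed the same order at its top. Il1r2 had signals of 188, 219 and 189.6 in KC2 (mean 199, SD 17.7, n = 3), against 10.9, 13.0 and 6.07 in KC1, 28.3, 8.4 and 10.6 in KC3, and 21.6, 36.7 and 5.03 in KC4. Of the 9 arrays of the other lines, 6 were at the floor of 16, among them all 3 of KC1, so that Il1r2 was near background outside KC2. Its mean log2 signal was 3.09 above that of KC4, the next line, where 1 array was under the floor. This gap was 1.63 with a floor of 64 and 3.64 with a floor of 1. KC2 was at least 12.4-fold above KC1.

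The IL-36 receptor differed from both in that KC1 was intermediate. The brighter Il1rl2 probe set had signals of 478, 441 and 454 in KC2, against 98.2, 91.5 and 117 in KC1, 25.7, 11.3 and 11.0 in KC3, and 9.99, 44.4 and 12.2 in KC4. KC2 lay above KC1 and KC1 above KC3 and KC4 with no overlap of arrays, while KC3 and KC4 overlapped, each with 2 of 3 arrays at the floor. The log2 gap of KC2 over KC1 was 2.17, or 4.50-fold. The second Il1rl2 probe set did not show this pattern: its signals were 40.1, 52.2 and 71.1 in KC2, within the 11.8 to 101 covered by KC4. The brighter probe set is of the s_at type, which can also pick up related transcripts.

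**Figure D1:**
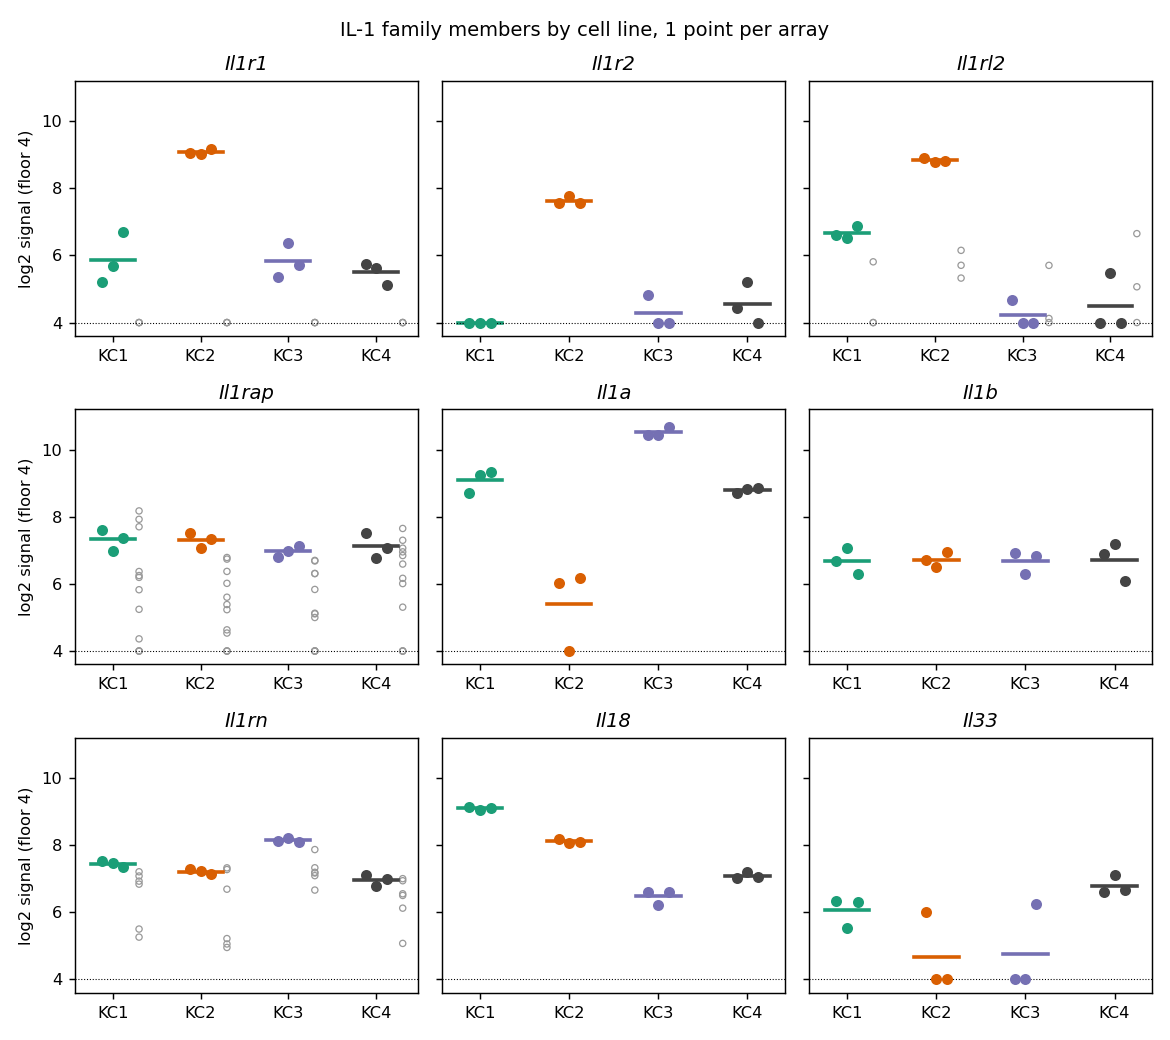
Signal of the 9 measured IL-1 family genes on each array, on a log2 scale with the floor of 4 as a dotted line; filled points are the probe set used for the gene (3 arrays per line, bar at their mean) and open grey points are its other probe sets. KC2 stands above the other lines for Il1r1, Il1r2 and the used probe set of Il1rl2 and below them for Il1a, and the lines overlap for Il1b.

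In the RefSeq gene order, Il1r2, Il1r1 and Il1rl2 follow one another and are followed by Il1rl1 and by the IL-18 receptor genes Il18r1 and Il18rap. Of the 10 other measured genes from Rnf149 to Tmem182, limma called 0 higher and 0 lower in KC2 than in every other line, and 0 had an unadjusted p under 0.05 against every line in one direction. Over all genes, 0.819% were called higher and 1.02% lower in KC2 than in each other line, so a count of 0 among 10 is close to that background. KC2 had the highest mean of the 4 lines for Il18r1, Slc9a4, Mfsd9 and Tmem182. Il18r1, which encodes the ligand-binding chain of the IL-18 receptor, had signals of 390, 111 and 371 in KC2, against 240, 209 and 211 in KC1, 181, 133 and 183 in KC3, and 124, 153 and 134 in KC4. KC2 replicates 1 and 3 were the brightest of all arrays and replicate 2 the dimmest. Il18rap, the accessory chain, was at a mean log2 signal of 8.65 in KC2 and 8.77 in KC1.

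One neighbour separated KC4 from the rest. Slc9a2, which encodes a sodium-proton exchanger, had signals of 335, 404 and 372 in KC1, 334, 253 and 328 in KC2, and 290, 275 and 384 in KC3, against 54.5, 80.9 and 66.7 in KC4. The mean of the 3 highly metastatic lines was 2.30 (SE 0.15) above KC4 on the log2 scale, with an adjusted p of 4.16e-06 by limma. On the near side of the cluster, Map4k4, a kinase gene next to Il1r2, was called higher in KC3 than in KC4, with a log2 difference of 1.01 (adjusted p = 1.07e-06). Mfsd9, on the far side, was called lower in KC1 than in KC4 by 1.08 (adjusted p = 0.00019) and higher in KC2 than in KC1 by 1.14 (adjusted p = 0.000143). It was also higher in KC2 than in KC3, by 0.96, under the minimum difference, and its log2 difference of KC2 to KC4 was 0.06 (adjusted p = 0.808).

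**Figure D2:**
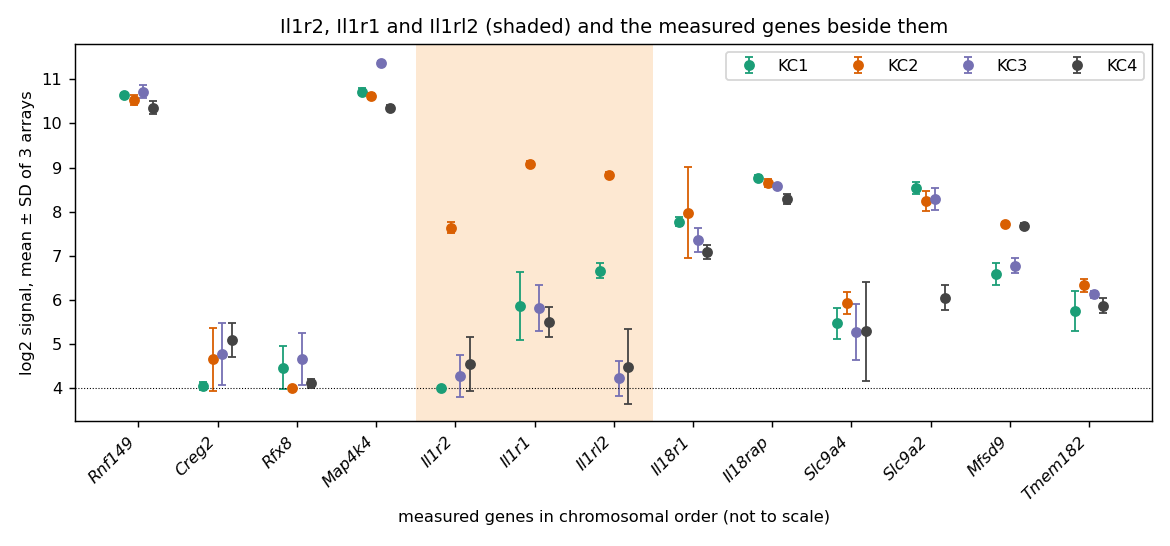
Mean log2 signal with SD over 3 arrays per line for Il1r2, Il1r1 and Il1rl2 (shaded) and the measured genes beside them in RefSeq order, spaced evenly and not to scale. The orange KC2 points lie far above the other lines within the shaded genes, where the gaps are 3.09, 3.22 and 2.17, and among or close to the other lines outside them.

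Over the 12 arrays, the log2 signals of Il1r2 and Il1r1 had a Pearson correlation of 0.913, those of Il1r2 and Il1rl2 of 0.804, and those of Il1r1 and Il1rl2 of 0.835; these values mostly restate the contrast of 3 KC2 arrays with 9 others, which the choice of the genes used. The 5 genes with the pattern most like the mean of the 3 receptors, among 1019 genes whose line means spanned at least 2 on the log2 scale, were Fam107a (r = 0.982), Wdr35 (0.980), Grap (0.973), Apol7a (0.969) and Tcf24 (0.967). Fam107a averaged a signal of 1621 in KC2, against 178 in KC1, 123 in KC3 and 96.0 in KC4. Grap, an adaptor gene, averaged 120.03 in KC2 and was at the floor in the means of KC1, KC3 and KC4, and Wdr35 averaged 1225 in KC2, against 301 to 368 in the other lines.

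The 6 other measured members were tested with limma across all 18193 genes, and a call needed both an adjusted p below 0.05 and a log2 difference of 1 or more in size. Against KC4, 1 of 6 was called in KC1 (5.54% of all genes were called in that comparison), 3 of 6 in KC2 (9.48%) and 2 of 6 in KC3 (8.22%); these comparisons share the KC4 arrays. Between highly metastatic lines, 1 of 6 was called for KC2 minus KC1 (5.01% of all genes), 2 of 6 for KC2 minus KC3 (10.8%) and 1 of 6 for KC1 minus KC3 (8.21%). The calls fell on Il1a, Il18, Il1rn and Il33, and neither Il1b nor the used probe set of Il1rap was called in any of them.

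Il1a, the gene of IL-1α, ran opposite to Il1r1 in KC2, where it was lowest. Its signals were 65.2, 13.4 and 72.0 in KC2, 417, 610.3 and 642 in KC1, and 1380.5, 1386 and 1640.2 in KC3, against 416, 453 and 467 in KC4. All KC3 arrays lay above and all KC2 arrays below every other array, and KC1 and KC4 overlapped. KC2 replicate 2 was under the floor of 16, so the KC2 mean depends on where the floor is set.

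The fall of Il1a in KC2 passed the test against each line. Relative to KC4 the log2 difference was -3.40 (SE 0.50, adjusted p = 0.000514 by limma), relative to KC1 it was -3.70 (adjusted p = 0.000551) and relative to KC3 it was -5.12 (adjusted p = 3.35e-05). Leaving out any 1 array kept these 3 calls, with differences to KC4 between -3.78 and -2.70. Il1a was higher in KC3 than in KC4 by 1.72 (adjusted p = 0.0248), but the adjusted p was 0.0580 to 0.0668 after any 1 of the 6 arrays of KC3 or KC4 was left out and 0.000493 when only these 2 lines entered the fit. For KC1 minus KC4 the difference was 0.30 (adjusted p = 0.761).

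The second IL-1 ligand did not separate the lines. Il1b had signals of 102.0, 134 and 78.4 in KC1, 106, 90.1 and 124 in KC2, and 121, 78.3 and 115 in KC3, against 118, 147 and 68.5 in KC4. All 4 ranges overlapped, and the largest log2 difference to KC4 was -0.05 (SE 0.31, adjusted p = 0.984 by limma).

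Il1rn, the gene of the receptor antagonist, was highest in KC3, the line with the most Il1a. Signals were 184, 176 and 165 in KC1, 156, 149 and 142 in KC2, and 281, 299 and 276 in KC3, against 138, 111 and 127 in KC4, and the ranges of the 4 lines did not overlap. KC3 was above KC4 by 1.19 on the log2 scale (SE 0.08, adjusted p = 4.94e-06 by limma), a 2.29-fold difference, which was 0.97 and under the minimum when its 3 probe sets were averaged. KC1 and KC2 also lay above KC4, by 0.49 (adjusted p = 0.00183) and 0.25 (adjusted p = 0.0346), under the minimum difference. Il1rn was 0.94 lower in KC2 than in KC3, also under the minimum. Of its 2 other probe sets, 1 gave no call, and the dimmer one gave 1, lower in KC2 than in KC3 by 2.16 (adjusted p = 0.0156).

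The accessory receptor chain gave different answers by probe set. The probe set used for Il1rap had signals of 195, 127 and 167 in KC1, 182, 133 and 163 in KC2, and 112, 126 and 141 in KC3, against 184, 110.3 and 135 in KC4. These ranges overlapped, and the log2 difference of KC2 to KC4 was 0.18 (SE 0.22, adjusted p = 0.643 by limma). Another Il1rap probe set had 37.6, 111 and 82.9 in KC2 against 134, 201 and 158 in KC4, a log2 difference of -1.21 (adjusted p = 0.0307), and was lower by 1.80 in KC2 than in KC1 (adjusted p = 0.00644). One more was also lower in KC2 than in KC4, with a difference of -1.72 (adjusted p = 0.0312). Of the remaining 2, 1 gave no call and the other was under the floor on every array. Which transcript forms these probe sets cover was not analysed here, so no single direction is stated for Il1rap.

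Il18, which encodes a cytokine cut to its active form by caspase-1, was graded across the lines. Signals were 560, 530.3 and 554 in KC1, 292, 268 and 277 in KC2, and 98.3, 75.0 and 98.3 in KC3, against 129, 147 and 133 in KC4. No 2 lines overlapped, and the order from high to low was KC1, KC2, KC4 and KC3. KC1 was above KC4 by 2.01 (SE 0.10, adjusted p = 1.41e-06 by limma) and above KC3 by 2.61 (adjusted p = 2.02e-07). KC2 was above KC3 by 1.63 (adjusted p = 2.07e-06) and above KC4 by 1.03 (adjusted p = 4.24e-05); the last value dropped just under the minimum difference, to 0.9995 without KC2 replicate 1, 0.994 without KC4 replicate 1, 0.953 with a pseudocount of 16 and 0.990 with median centring. KC3 lay 0.60 below KC4 (adjusted p = 0.00142), a difference under the minimum.

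Il33, the gene of a nuclear cytokine of epithelial and stromal cells, was highest in KC4. It had signals of 81.2, 46.1 and 79.5 in KC1, 64.5, 15.0 and 9.12 in KC2, and 12.8, 11.6 and 75.7 in KC3, against 96.6, 140 and 103 in KC4. Every KC4 array lay above every other array, and 2 of 3 arrays were at the floor in both KC2 and KC3. The log2 difference of KC2 to KC4 was -2.13 (SE 0.71, adjusted p = 0.0439 by limma). That call was lost in 8 of the 12 fits that left out 1 array, where the adjusted p reached 0.140 and the difference ran from -2.80 to -1.79. KC3 minus KC4 was -2.05 (adjusted p = 0.0532) and KC1 minus KC4 was -0.74 (adjusted p = 0.540).

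**Figure D3:**
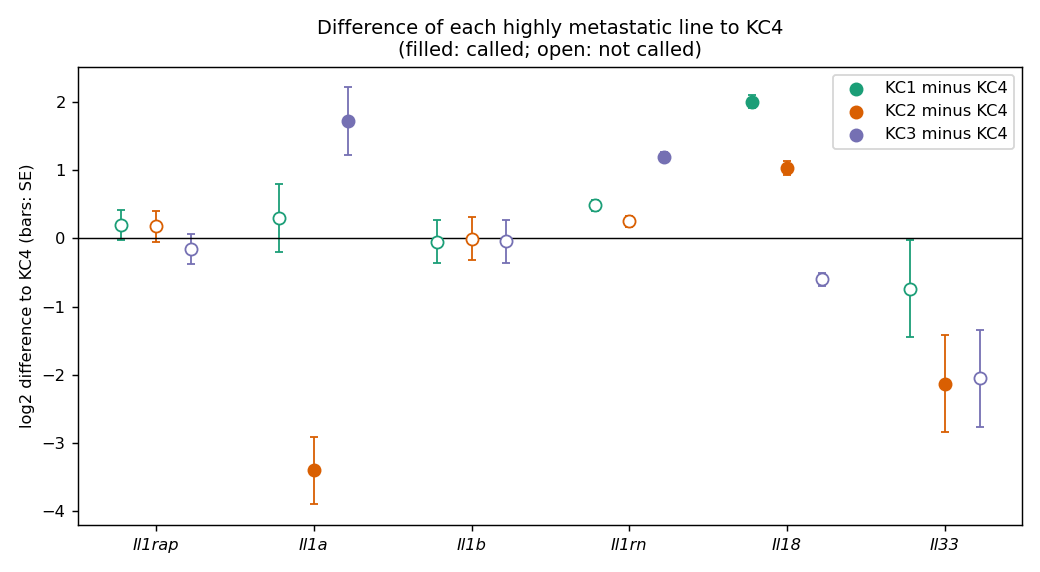
Log2 difference of KC1, KC2 and KC3 to KC4 for the 6 tested members, with standard errors; filled points were called by limma and open points were not. For Il1a the 3 lines lie on both sides of KC4, from -3.40 in KC2 to 1.72 in KC3, and for Il18 KC1 and KC2 lie above it and KC3 below.

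Set against metastatic class, the members gave no common pattern. When the 3 highly metastatic lines were averaged and KC4 subtracted, limma called 0 of the 6 tested members; 3 had an unadjusted p under 0.05 and 2 an adjusted p under it, Il18 with a difference of 0.81 (adjusted p = 6.93e-05) and Il1rn with 0.64 (adjusted p = 6.85e-05). Over all genes 2.87% were called higher and 2.57% lower. These shares are for calls, and the shares of all genes at the looser thresholds were not computed. The class difference of Il1a was -0.46 (adjusted p = 0.467) with all lines, 1.01 (adjusted p = 0.00229) without KC2 and -1.55 (adjusted p = 0.0494) without KC3. For Il18 it was 1.52 without KC3 (adjusted p = 2.45e-06) and 0.22 without KC1 (adjusted p = 0.159). Il33 had a class difference of -1.64 (adjusted p = 0.0601).

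Other genes of the pathway were described by 5 lists of 66 genes, of which 62 were measured. In the contrast of class, 8 of the 62 rose and 4 fell (2.87% and 2.57% of all genes), with a median log2 difference of -0.02, beside -0.00088 over all genes. With line as a random block, 1 of the 62 was called higher and 0 lower. That fit lets the arrays of a line correlate but still counts arrays, not lines, as observations. With KC4 the only poorly metastatic line, it does not test class across lines. Against each other line, 0 of the 62 were called higher and 0 lower in KC2 by limma, beside 0.819% and 1.02% of all genes. With an unadjusted p under 0.05 in place of the calls these counts were 5 and 6. The share of all genes at that looser threshold was not computed, so the 5 and 6 have no background to be set against.

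Among 6 other receptors and decoys, 1 rose and 0 fell, with a list median of 0.16. It was Sigirr, which encodes an inhibitory receptor of the family. Its signals were 1735, 1732 and 1624 in KC1, 1983, 2129 and 2024 in KC2, and 3527, 3437 and 3420 in KC3, against 654, 604 and 602 in KC4. No 2 lines overlapped. The class difference was 1.89 (SE 0.04, adjusted p = 3.89e-09 by limma), and Sigirr was the gene that remained called with line as a random block (adjusted p = 0.00486). The 5 other ligands, Il1f10 and the 4 genes of IL-36 cytokines and their antagonist, had 0 calls in either direction and a median of -0.13.

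Of 10 measured genes for the release and maturation of IL-1 cytokines, 1 rose and 1 fell, with a median of -0.02. The riser was Aim2, a DNA sensor that assembles an inflammasome, with signals of 284, 237 and 239 in KC1, 43.0, 39.5 and 42.2 in KC2, and 7.54, 2.04 and 23.9 in KC3, against 3.33, 4.82 and 10.6 in KC4. KC4 was under the floor on all 3 arrays and KC3 on 2 of 3, so the class difference of 1.85 (adjusted p = 3.96e-06 by limma) is set in part by the floor. Against that floor, the log2 difference to KC4 was at least 3.98 in KC1 and at least 1.38 in KC2. Gsdmd, the gene of the pore-forming gasdermin D through which IL-1β leaves the cell, fell by 1.85 (SE 0.30, adjusted p = 0.00114), with signals of 136, 41.2 and 94.8 in KC1, 268, 201 and 240 in KC2, and 29.8, 27.6 and 36.4 in KC3, against 308, 285 and 319 in KC4. For Gsdmd the log2 difference to KC4 was -1.90 in KC1 and -3.29 in KC3, but -0.37 in KC2 (adjusted p = 0.528 by limma). Casp1, the gene of caspase-1, was at the floor on 11 of 12 arrays.

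Of 17 measured adaptor and kinase genes, 0 rose and 1 fell, with a median of -0.15. The gene was Map3k8, a kinase upstream of ERK, with a class difference of -1.19 (SE 0.34, adjusted p = 0.0246 by limma). It was at the floor on 9 of 12 arrays, and the brightest were KC4 replicates 2 and 3, at 56.3 and 56.9, while KC4 replicate 1 was at 12.4. Myd88, Irak1 and Traf6, the adaptor and the kinase and ligase downstream of it, had class differences under the minimum. These were -0.35 (adjusted p = 0.00256 by limma), 0.44 (adjusted p = 3.71e-05) and 0.13 (adjusted p = 0.27).

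Of the 24 measured genes known to be induced by IL-1, the longest of the lists, 6 rose and 2 fell, beside 2.87% and 2.57% of all genes, with a median of 0.50. None of these 8 calls held with line as a random block. Csf2, which encodes GM-CSF, had signals of 1093, 984 and 949 in KC1, 1122, 1258 and 1149 in KC2, and 1166, 1197 and 1037 in KC3, against 162, 20.1 and 90.0 in KC4. The 3 highly metastatic lines were alike and all far above KC4, and the class difference was 4.05 (SE 0.50, adjusted p = 0.000216 by limma). The collagenase gene Mmp13 had a class difference of 3.70 (SE 0.11, adjusted p = 3.94e-08), and was graded, with mean signals of 3423 for KC1, 714 for KC2 and 161 for KC3, against 56.9 for KC4.

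The chemokine genes of this list that were called by class differed by line. Cxcl1, Cxcl2 and Ccl2, also listed, were not called by class. Cxcl3, a neutrophil attractant, averaged 347 for KC1, 724 for KC2 and 22.5 for KC3, against 22.4 for KC4, with a class difference of 3.01 (SE 0.30, adjusted p = 5.91e-05 by limma). Ccl20, a ligand of the receptor CCR6, averaged 106 for KC1, 24.7 for KC2 and 1134 for KC3, against 23.3 for KC4, with a class difference of 2.55 (SE 0.41, adjusted p = 0.0012). The called genes thus peaked in different lines: Cxcl3 in KC2, Ccl20 in KC3, and Cxcl5 and Mmp13 in KC1. The other calls by class were Cxcl5 and Vcam1, higher, and Bcl3 and Birc3, lower, and not every line shared them. For KC3 minus KC4, Cxcl5 was at -0.41 and Vcam1 at -0.13, and for KC1 minus KC4, Bcl3 was at -0.20 and Birc3 at -0.28, none of them called. Bcl3 was also not called for KC2 minus KC4, at -0.59, under the minimum difference. A second Birc3 probe set was not called (difference -0.41, adjusted p = 0.596), and both other Vcam1 probe sets were higher, by 1.16 and 2.10.

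**Figure D4:**
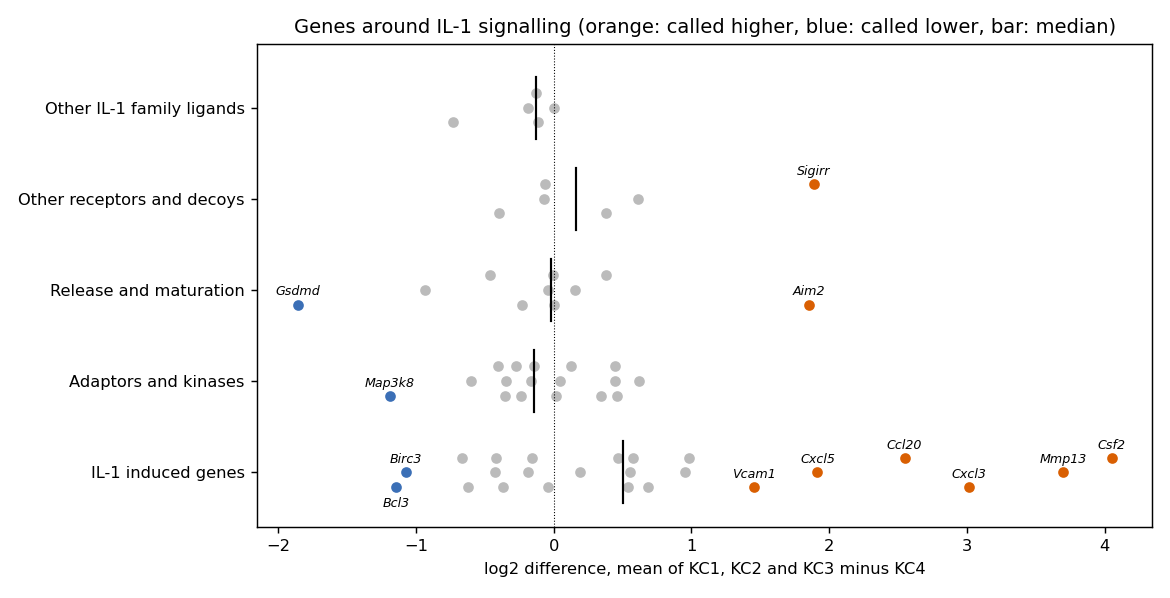
Log2 difference between the average of the 3 highly metastatic lines and KC4 for the 62 measured genes of 5 lists around IL-1 signalling; each point is a gene, orange called higher, blue called lower and grey not called, with a black bar at the median of the list. The 6 orange genes among the IL-1 induced genes run from Vcam1 to Csf2 at 4.05, and Sigirr and Aim2 are the orange points in the lists above them.

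The labelled cell type was checked against markers. Epithelial genes were bright in every line, with 8 of 8 measured and summed signals of 77841 to 96315 in KC1, KC2 and KC3, against 64229 to 75709 in KC4. Of 6 lung epithelial markers, Napsa was at the floor on all arrays and Nkx2-1 was near it, at mean log2 signals of 4.18 to 5.41. Scgb1a1 was at the floor on 4 arrays. Abca3, at signals of 711 to 1016, Sftpb, at 112 to 457, and Sftpc, at 87.6 to 126, were above it on every array. The list summed to 993 to 1403 in KC1, KC2 and KC3, against 1161 to 1454 in KC4. Summed signals of 8 leukocyte and macrophage markers were 1527 to 2125 in KC1, KC2 and KC3 and 1971 to 2042 in KC4, and those of 4 mast cell, 3 lymphocyte, 7 fibroblast and 5 endothelial markers also overlapped between KC4 and the other lines. Itgam was at the floor on 9 arrays, Cd3d on 10 and Pdgfrb on all 12. Cd79a was at the floor on 3 arrays, Fcer1g and Tek on 2 each and Dcn on 1. The remaining markers of these lists were above the floor on every array. Among them were Cd14 at signals of 574 to 980, Col1a2 at 131 to 217 and Kdr at 170 to 277. The control for the 5′ part of 18S ribosomal RNA averaged 605 for KC1, 451 for KC2 and 414 for KC3, against 3305 for KC4. The 3′ and middle 18S controls were also highest in KC4, at 868 and 529. Line means of the 5′ controls ran from 16133.6 in KC4 to 17094.5 in KC1 for actin. For Gapdh they ran from 18178 in KC4 to 21446.7 in KC3. The part of these controls in the differences to KC4 was not tested.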

How the data were processed

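Total RNA of 4 lines was measured on 12 one-colour Affymetrix expression arrays, 3 per line. The deposited table holds linear intensity values for 45101 probe sets; the authors' software and background correction are not given in the sources used here. Trimmed means of 500.002 to 500.003 on every array are the pattern of scaling to one target, and 15.3% to 19.9% of probe sets lay at or under a signal of 16. The number of arrays limits the precision.

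A floor of 16 was put under the signals before taking log2. Of the probe sets, 34945 had 1 gene symbol in the platform annotation, 932 had several and 9160 were not listed; the 64 controls were left out. Each of 18193 genes was represented by its probe set with the highest mean. Lines were compared with limma 3.58.1 under R 4.3.3, in a single fit of the 12 arrays with a coefficient for each line, using Benjamini-Hochberg adjustment over all genes, and the other probe sets of members in a fit over every probe set. The contrast of class set the average of the 3 highly metastatic lines against KC4. The procedure was tested on simulated data. Figures were drawn with matplotlib 3.10.9.

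The members, gene lists and motifs were chosen with earlier results of these data known. Named genes were all members, up to 4 called genes per list by size, the IL-1 receptor cluster with the 4 nearest measured genes on each side, and the 5 genes most correlated with the 3 receptors. Bcl3, Birc3, Cxcl5, Vcam1, Myd88, Irak1, Traf6 and Casp1 were named after their values were seen. Listed genes Nlrc4, Irak4, Chuk and C3 were not analysed here. Correlations of deviations between same-numbered arrays ran from -0.29 to 0.25, and the main fit did not pair arrays by replicate number. Arrays with different numbers were not compared, so these values do not exclude pairing. Alternatives were another floor, pseudocount, normalization, probe set rule, prior, set of samples and minimum difference, the replicate number or the line as a block, and leaving out each array or line.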

Additional observations from a re-analysis of the deposited data

Results flagged for a closer look

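Differences between lines that carry the same label, highly metastatic, were listed wherever limma called one of the 6 tested members. Il1a was lower in KC2 than in KC1 by a log2 difference of -3.70 (adjusted p = 0.000551), and lower in KC2 than in KC3 by -5.12 (adjusted p = 3.35e-05), so its difference to KC4 had opposite signs in KC2 and KC3. Il18 was higher in KC2 than in KC3 by 1.63 (adjusted p = 2.07e-06) and higher in KC1 than in KC3 by 2.61 (adjusted p = 2.02e-07). Each of these 4 differences was a contrast of the lines themselves in the fit over all genes, and each was larger than the spread of the 3 arrays of a line, with no overlap of arrays.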

How the results depend on the processing

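The KC2 gap moved with the treatment of low values and probe sets. For Il1r2 it was 1.63 with a floor of 64, 3.64 with a floor of 1 and 2.63 with a pseudocount of 16. For Il1rl2 it was 2.01 with the pseudocount and 1.65 with the mean of all probe sets. For Il1r1 it was 1.61 with that mean, which includes the second Il1r1 probe set, at the floor on every array. Leaving out 1 array gave 2.82 to 3.36 for Il1r2, 2.89 to 3.26 for Il1r1 and 2.10 to 2.27 for Il1rl2. With the replicate block, the gaps were 3.09, 3.22 and 2.17, and 2 members were called for KC2 minus KC4 in place of 3, since Il33 then had an adjusted p of 0.0685; the other counts of calls were as reported.

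Members called changed as follows. For KC2 minus KC4 they were 2 with median centring, a pseudocount of 16, a floor of 64, every probe set tested, only the lines compared or a minimum difference of 2, and 4 with no minimum. For KC3 minus KC4 they were 3 with the pseudocount, quantile normalization, median centring, a prior with trend or no minimum, and for KC2 minus KC3 they were 3 with quantile normalization, median centring, the mean of all probe sets or no minimum. The brighter 50% of the genes held only Il1a of the tested members, so at most 1 could be called there. With that part alone the members called were 0 for KC1 minus KC4 and 1 each for KC2 minus KC4, KC3 minus KC4 and KC2 minus KC3. With no minimum difference they were 2 for KC1 minus KC4, KC2 minus KC1, KC1 minus KC3 and the class contrast, and with a minimum of 2 they were 0 for KC3 minus KC4 and 1 for KC2 minus KC3. The mean of all probe sets gave 1 for KC3 minus KC4. For KC1 minus KC3, 2 were called with a floor of 64, the pseudocount, quantile normalization, median centring, a prior with trend and only the lines compared. For class, 1 was called with the pseudocount, quantile normalization, median centring, the prior with trend and without KC2, and 2 without KC3. Without 1 array the counts ran from 1 to 3 for KC2 minus KC4 and for KC3 minus KC4, from 1 to 2 for KC2 minus KC1 and KC1 minus KC3, and from 0 to 1 for class; they stayed at 1 for KC1 minus KC4 and 2 for KC2 minus KC3. The count for KC2 minus KC4 was 1 without KC4 replicate 1, and that for KC3 minus KC4 was 1 in 5 of the 6 fits without a KC3 or KC4 array.

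Pathway genes called higher by class were 4 in the brighter 50%, 4 with a minimum of 2, 23 with none and 1 with line as a random block. Those called lower were 1, 0, 14 and 0, and without KC3, 1 was called lower. In the brighter 50%, pathway genes of the dimmer part were left out and could not be called. Leaving out 1 array gave 8 to 9 higher and 2 to 4 lower, the 2 without KC4 replicate 2. Signs turned for class differences that were not called: Il1rap to -0.41 with the mean of all probe sets (-0.10 to 0.27 without 1 array), Il1b to 0.0063 with quantile normalization (-0.34 to 0.21 without 1 array) and Il1a to 1.01 without KC2. The Il33 difference of KC2 to KC4 was also not called with every probe set tested (adjusted p = 0.0507), a floor of 64 or only the 2 lines (0.0654). Beyond the genes left out of the brighter 50%, the cause of these changes was not tested.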
